A study of Mus musculus with 16 samples.

Results

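The genes described here carry glucose from the blood into the heart muscle cell and on to carbon dioxide. They comprise glucose uptake, glycolysis, lactate exchange, the pyruvate dehydrogenase complex and the tricarboxylic acid (TCA) cycle. They were chosen by symbol, as a list of 35 genes, and all 35 were among the 24982 entries of the count table. All 35 also passed the filter on low counts, which left 13775 genes.

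Total RNA of the left ventricle was sequenced from 16 C57BL/6 mice, 1 library per mouse. One group was Tln2-null (8 mice). The other was Tln2-null as well and carried in addition a knockout of Tln1 in cardiac fibroblasts (CF), the matrix-producing cells between the muscle cells (8 mice, called knockout mice here). Each group held 4 males and 4 females. All mice were injected with tamoxifen for 5 days, and 2 weeks later received angiotensin II (AngII), a hormone that raises blood pressure, from an osmotic pump for 8 weeks. Tln1 and Tln2 encode talins, which tie integrins to the actin cytoskeleton. By label, both groups thus lack Tln2. No wild-type mice and no mice without AngII were analysed here, so no value below is an effect of AngII. The sources used here do not name the promoter that drives the deletion. Since the deletion is confined by design to fibroblasts, a library of whole ventricle mixes deleted and undeleted cells.

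Glucose enters cells through facilitative transporters, is trapped as glucose 6-phosphate by hexokinases, and is split and oxidised to pyruvate by the glycolytic enzymes. Pyruvate is either exchanged with lactate by lactate dehydrogenase or carried into the mitochondrion, where the pyruvate dehydrogenase complex turns it into acetyl-CoA for the TCA cycle. The healthy adult heart gains most of its ATP from fatty acids, and the hypertrophied heart is known for a larger share of glucose use. Several steps have a muscle gene and a gene common to most tissues, such as Pfkm beside Pfkl and Pfkp, or Pgam2 beside Pgam1.

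Of the 35 genes, 33 had an entry in the RefSeq promoter table for GRCm38.p6, which covers 250 bases before and 50 bases after the gene's start. Slc2a4 and Idh3a had none. The 200 bases before the start are printed for 4 genes that the results below single out. Slc2a1 and Hk2 are 2 of the 4 members with the lowest p between genotypes in males, and Pfkl and Slc16a1 are the members that went with the numbering of the samples. Each is written 5′ to 3′ on the strand of its gene, and capitals mark the core hypoxia and E-box letters ACGTG, on either strand (CACGT when read on the other one).
Slc2a1, chr4:119108545-119108744, plus strand: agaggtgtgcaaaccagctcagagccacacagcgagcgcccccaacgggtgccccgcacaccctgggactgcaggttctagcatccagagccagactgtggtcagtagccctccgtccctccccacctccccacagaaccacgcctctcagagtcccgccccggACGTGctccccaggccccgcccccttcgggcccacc
Hk2, chr6:82774455-82774654, minus strand: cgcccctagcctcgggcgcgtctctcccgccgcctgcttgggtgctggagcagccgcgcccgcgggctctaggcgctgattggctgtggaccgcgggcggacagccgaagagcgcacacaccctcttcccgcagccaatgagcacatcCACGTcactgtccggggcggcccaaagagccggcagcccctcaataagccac
Pfkl, chr10:78009808-78010007, minus strand: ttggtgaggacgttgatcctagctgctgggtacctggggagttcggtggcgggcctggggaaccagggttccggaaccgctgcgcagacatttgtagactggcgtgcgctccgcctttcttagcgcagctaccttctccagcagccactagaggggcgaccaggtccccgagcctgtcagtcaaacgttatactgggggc
Slc16a1, chr3:104638464-104638663, plus strand: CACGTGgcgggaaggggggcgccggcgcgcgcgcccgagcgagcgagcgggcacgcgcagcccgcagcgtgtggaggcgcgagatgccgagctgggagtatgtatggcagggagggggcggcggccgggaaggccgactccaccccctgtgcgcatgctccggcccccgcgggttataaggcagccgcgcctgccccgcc
Slc2a1 holds ACGTG and Hk2 its reverse complement. The Slc16a1 stretch opens with the palindrome CACGTG, while the Pfkl stretch holds neither. The guanine and cytosine content was 69.0% for Slc2a1, 70.5% for Hk2, 62.0% for Pfkl and 77.5% for Slc16a1. In the windows from 250 bases before to 50 after the start, both strands read, ACGTG was in 12 of 33 members (36.4%) against 19.7% of 27025 promoters. CACGTG, which contains ACGTG, was in 5 of 33 (15.2%) against 7.24% of all promoters. The GC-box letters GGGCGG were in 21 of 33 (63.6%) against 35.9%, and AAGGTCA, the letters bound by oestrogen-related receptors, in 1 of 33 (3.03%) against 4.66%. These are matches of letters and not measured binding.

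Libraries held between 11161766 counts (knockout replicate 8) and 19221673 (knockout replicate 5), and the lowest count of any member in any library was 210 (Slc2a1). Values are given as CPM, counts scaled to a common library size. The markers fitted heart muscle: 12 cardiomyocyte markers summed to 65205 to 77731 CPM per library, while 9 skeletal muscle markers summed to 2.82 to 5.30 CPM. The 6 atrial markers summed to 296 to 1957 CPM. Of these Nppa had means of 1060 CPM (Tln2-null) and 788.9 CPM (knockout), and each other one had group means of at most 23.57 CPM. That the tissue was ventricle is taken from the label. Tln1 was read at 289 ± 20.7 CPM (Tln2-null) and 273.6 ± 31.3 CPM (knockout; SD over the 8 mice of each group). Tln2 was read at 66.81 ± 7.25 and 67.07 ± 2.32 CPM. Whole-gene counts of mixed tissue do not show the deleted part, so they check the labels little. The libraries Tln2-null 8 and knockout 8 stood apart in the clock gene Arntl (28.42 and 27.14 CPM) and Tln2-null 5 in the heat-shock gene Hspa1a (85.93 CPM). Reads of Y-linked genes above 1% of the male mean were found in 4 libraries labelled female. Results were therefore also computed without these libraries.

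Ranked by CPM per kilobase of exon, the only scale on which levels of different genes are set against each other here, Ldhb was the highest member at 1150 ± 77.7 CPM per kb (SD, n = 16). It encodes the lactate dehydrogenase subunit typical of heart, and it was followed by Aldoa (aldolase, 1097 ± 75.6), Eno3 (muscle enolase, 1086 ± 97.5), Mdh2 (mitochondrial malate dehydrogenase, 884.8 ± 58.4), Pgam2 (muscle phosphoglycerate mutase, 667.6 ± 51.0) and Ogdh (2-oxoglutarate dehydrogenase, 627.2 ± 44.6). The first 3 differed by less than their spread over libraries. At the other end stood Slc2a1, the GLUT1 glucose transporter of most tissues, at 8.55 ± 1.79 CPM per kb. Next above it were Pgam1 (26.6 ± 4.67) and Pfkp, the platelet-type phosphofructokinase (29.3 ± 5.47), which again differed by less than their spread.

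**Figure D1:**
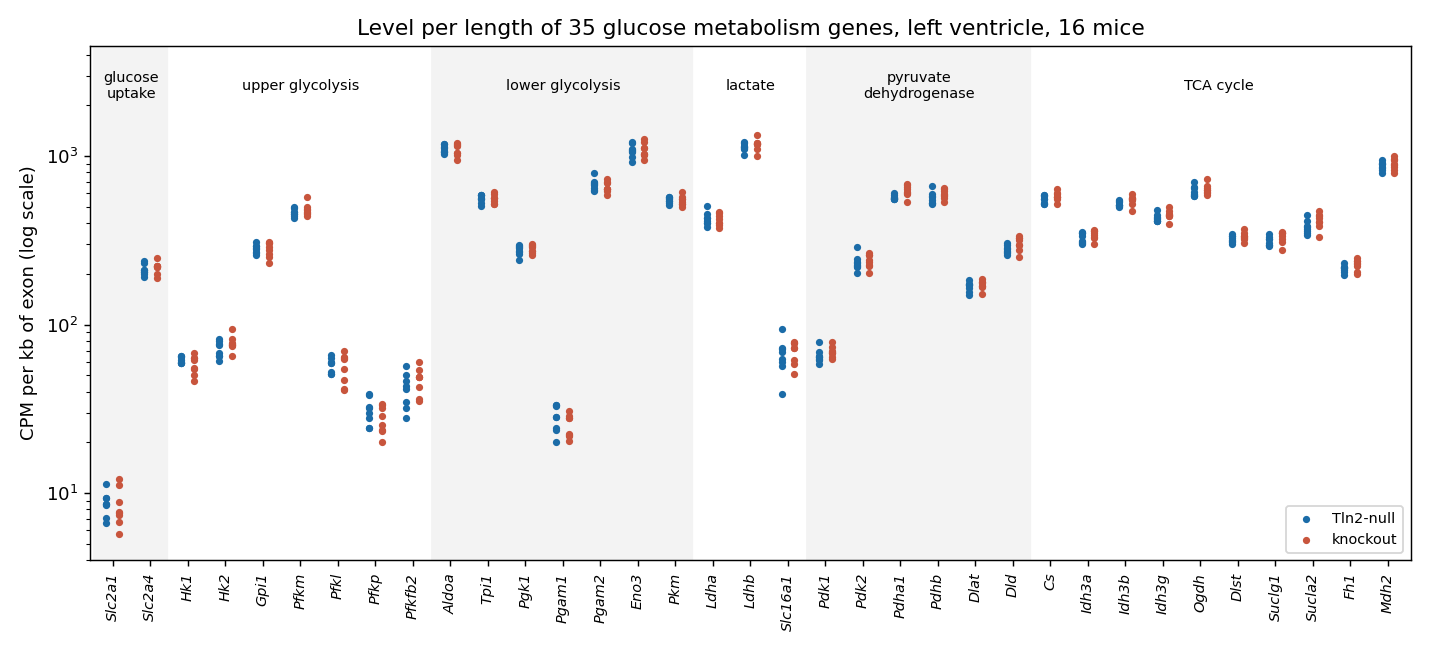
Level of each of the 35 genes in CPM per kilobase of exon (log axis), 1 point per mouse, Tln2-null in blue and knockout in red, with bands for the steps of the pathway. Ldhb, Aldoa and Eno3 lie at means of 1150, 1097 and 1086 CPM per kb and Slc2a1 at 8.55, and the colours overlap for every gene.

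Where a step has a muscle or heart gene and a more widespread one, the former was the higher per length. Slc2a4, the insulin-responsive GLUT4 transporter of muscle and fat, exceeded Slc2a1 by 26.1 times on average over the 16 libraries (range 18.4 to 33.5). Pfkm, the muscle phosphofructokinase, exceeded Pfkp by 16.7 times and the liver-type Pfkl by 8.51 times. Pgam2 exceeded Pgam1 by 25.8 times and Ldhb exceeded Ldha by 2.73 times. The hexokinases were closest, Hk2, the muscle enzyme, standing 1.26 times above Hk1 (range 1.02 to 1.67). Of the 2 members that are kinases switching off pyruvate dehydrogenase, Pdk2 exceeded Pdk1 by 3.53 times. Pdk4, another such kinase, is not a member and was not ranked with them. Its means were 874.1 CPM (Tln2-null) and 670.3 CPM (knockout), over 3484 bases of exon. Eno1, the enolase of most tissues, had 3 counts over all libraries and at most 1 in any, so that its ratio to Eno3 was not formed. Of the 50-base windows of Eno1, 26.0% also occur in transcripts of other genes, Eno1b among them. Pkm, with a like share of 25.8%, had at least 15141 counts in every library. What lies behind the low count of Eno1 was not tested, and the count is not taken as a measure of its expression. Some levels are less certain because similar sequences compete for reads: 53.9% of the 50-base windows of Pgk1, 36.2% of those of Pgam1, 25.8% of those of Pkm and 21.0% of those of Ldhb also occur in transcripts of other genes. The sources used here do not say how such reads were counted.

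The members varied little between mice. The ratio of the highest to the lowest library ran from 1.2 for Tpi1 (triosephosphate isomerase) to 2.42 for Slc16a1 (the MCT1 lactate and pyruvate transporter), with a median of 1.33. The median biological coefficient of variation was 8.86% over the members, against 12.2% over all genes tested and 9.42% over the 2010 genes at 100 CPM or more. Slc16a1 (19.3%), Slc2a1 (18.6%) and Pfkfb2 (18.3%), the last making the allosteric activator of phosphofructokinase, were the most variable members. Dlst (7.32%) and Idh3b (7.58%), both of the TCA cycle, were the least variable. A pair of libraries supplied many of the extremes: knockout 4 was the highest library for 16 of the 35 members and knockout 2 the lowest for 10. Their cardiomyocyte marker sums, 77610 CPM in knockout 4 and 65205 CPM in knockout 2, lay near the top and at the bottom of the 16. The highest sum, 77731 CPM, was that of knockout 6, which was the highest library for 0 members and the lowest for 4. A link between these sums and the members was not tested.

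Between genotypes no member of the pathway passed the test. With sex as a term in edgeR's quasi-likelihood fit, 0 of 35 members had an adjusted p under 0.05, where 0% of all 13775 genes did. At an unadjusted p under 0.05 there was 1 member, Pdha1, against 5.08% of all genes. DESeq2 and limma-voom also called 0 members, and their counts over all genes are given in the last section. No member had CPM ranges that lay apart between the genotypes (0 of 35, against 0.0436% of all genes). The precision was enough to bound the differences: the 95% interval of the fold lay within 1.2-fold either way for 27 members and within 1.5-fold for all 35. Point estimates were above 0 (higher in knockout) for 24 members and below 0 for 11, where 48.8% of all genes were above 0, with a median log2 fold change of 0.04 for the members and -0.003 for all genes.

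Glucose uptake was split. Slc2a4 ran from 538.1 through a median of 583.9 to 669.2 CPM in Tln2-null mice and from 532.2 through 620.3 to 694.4 CPM in knockout mice. The log2 fold change was 0.04 ± 0.06 (SE). Slc2a1 ran from 21.78 through 28.03 to 36.88 CPM and from 18.75 through 24.91 to 39.44 CPM, at -0.06 ± 0.13. The ranges of both genes overlapped almost wholly.

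In upper glycolysis, from glucose to fructose 1,6-bisphosphate, 3 of 7 estimates were above 0 and none passed. Hk2 ran from 342.6 through 400.9 to 462.9 CPM in Tln2-null mice and from 366.9 through 428.6 to 529.7 CPM in knockout mice. Its log2 fold change was 0.12 ± 0.07 (adjusted p = 0.935), and 7 of 8 knockout mice were above the Tln2-null mean. Pfkfb2 ran from 140.6 through 211.3 to 285.2 CPM and from 176 through 244.6 to 301.3 CPM, with 0.18 ± 0.13 (adjusted p = 0.939). Pfkp ran from 104.4 through 133.2 to 167.3 CPM and from 86.23 through 116.4 to 144.4 CPM, with -0.17 ± 0.11 (adjusted p = 0.935). These 3 genes had the widest differences of the step, and their ranges overlapped. For Hk1, the hexokinase of most tissues, Gpi1 (glucose phosphate isomerase), Pfkm and Pfkl the estimates lay between -0.10 and 0.06.

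In lower glycolysis, from aldolase to pyruvate, 2 of 7 estimates were above 0. Aldoa, Tpi1, Pgk1 (phosphoglycerate kinase), Eno3 and Pkm (pyruvate kinase) lay between -0.01 and 0.03, the flattest stretch of the pathway. Pgam2 stood at -0.05 ± 0.06 and Pgam1 at -0.15 ± 0.11. Of the lactate genes, Ldha was at -0.03 ± 0.06, Ldhb at 0.05 ± 0.05 and Slc16a1 at 0.07 ± 0.14.

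All 6 genes of the pyruvate dehydrogenase step had estimates above 0, with a median of 0.08, and none passed the test. Pdha1, the E1 alpha subunit that the kinases phosphorylate, ran from 1573 through 1607 to 1718 CPM in Tln2-null mice. In knockout mice it ran from 1513 through 1774 to 1940 CPM. The lowest and the highest library were both knockout libraries, and 7 of 8 knockout mice were above the Tln2-null mean. The log2 fold change was 0.12 ± 0.05, with an adjusted p of 0.916 from edgeR and an adjusted p between 0.277 and 1 over the alternative settings. Dld, the E3 subunit shared with the 2-oxoglutarate dehydrogenase complex, ran from 659.5 through 705.1 to 775.4 CPM and from 642.1 through 782.5 to 851.5 CPM, with 0.12 ± 0.06 (adjusted p = 0.935). Pdhb (E1 beta, 0.07 ± 0.06), Dlat (E2, 0.04 ± 0.05), Pdk1 (0.08 ± 0.06) and Pdk2 (0.03 ± 0.07) lay lower.

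The TCA cycle was the most uniform step: all 10 estimates were above 0, between 0.04 and 0.12, with a median of 0.06, and none passed. Sucla2, the ADP-forming succinyl-CoA ligase subunit, ran from 756.5 through 833.9 to 995.6 CPM in Tln2-null mice and from 741.9 through 927.1 to 1051 CPM in knockout mice. Its log2 fold change was 0.12 ± 0.07 (adjusted p = 0.935). Fh1 (fumarate hydratase, 0.08 ± 0.05, adjusted p = 0.935) and Idh3b (a subunit of the NAD-dependent isocitrate dehydrogenase, 0.07 ± 0.05, adjusted p = 0.935) came next by p. Citrate synthase (Cs), the enzyme of entry, stood at 0.06 ± 0.05, and Mdh2 and Ogdh at 0.04 ± 0.05 each. With the title number of the samples as a further term the estimate was 0.09 for Pdha1 and 0.07 for both Dld and Sucla2 (adjusted p = 1 for each), and with 1 surrogate variable it was 0.08 for Pdha1, 0.06 for Dld and 0.04 for Sucla2.

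**Figure D2:**
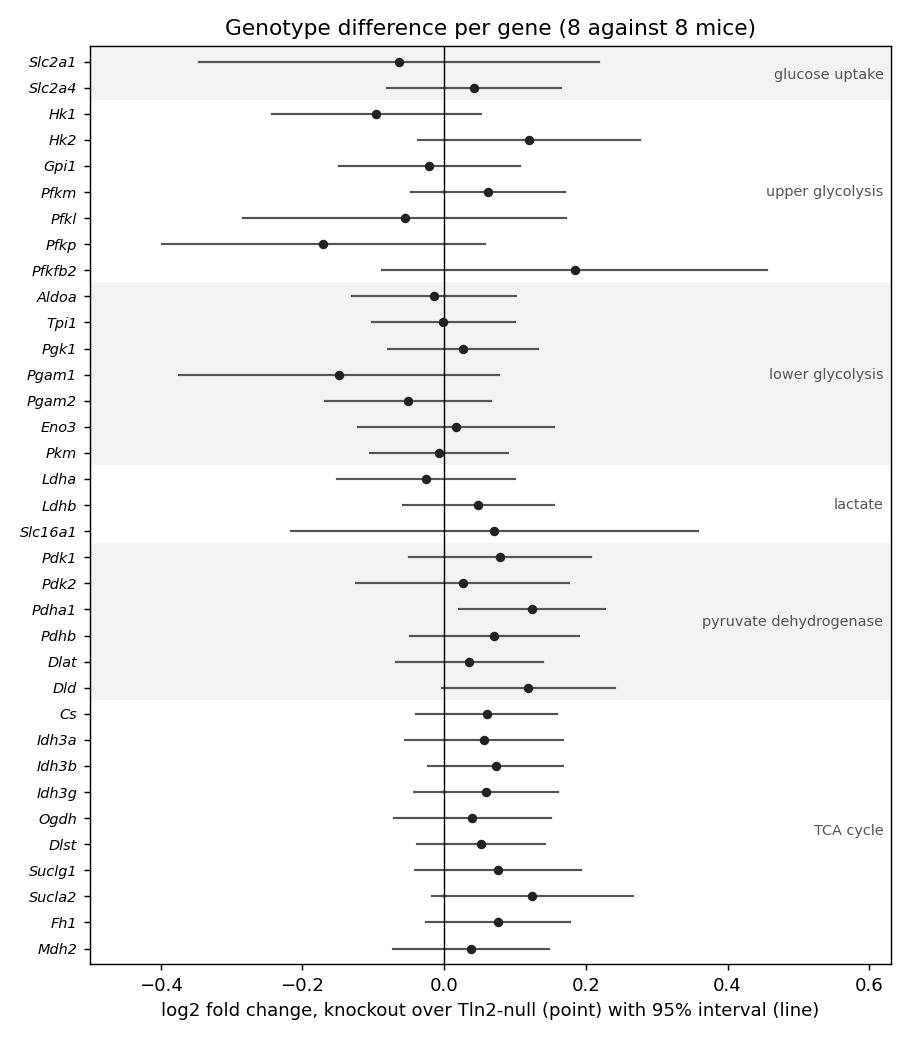
Log2 fold change of each gene, knockout over Tln2-null (point), with its 95% interval (line), from 8 against 8 mice and ordered along the pathway. All 6 pyruvate dehydrogenase and all 10 TCA cycle points lie right of 0, and every interval but that of Pdha1 crosses 0.

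Estimates for markers of cell types are given beside these values. All 12 cardiomyocyte markers had estimates above 0 (median 0.07), 0 passed in edgeR's fit and 3 had an unadjusted p under 0.05. Their summed level ran from 67302 to 73599 CPM (Tln2-null) and from 65205 to 77731 CPM (knockout). All 8 fibroblast markers had estimates below 0 (median -0.43), 0 passed and 5 had an unadjusted p under 0.05. Their sums ran from 1349 to 2636 CPM (Tln2-null) and from 1160 to 2247 CPM (knockout). The part of these differences in the members' values was not tested. In bulk tissue, fewer cells of a type and less RNA per cell cannot be told apart.

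Ratios of isoform genes within a library need no scaling between libraries, and 7 were tested by exact two-sided permutation of the genotype labels within each sex (4900 exchanges), with p adjusted over the 7. None passed. Hk1/Hk2 had the lowest p. Its log2 ratio ran from -0.63 to -0.23 in Tln2-null mice (mean -0.42) and from -0.95 to -0.45 in knockout mice (mean -0.64). The difference was -0.22 (exact p = 0.0188, adjusted p = 0.132), and 0 of 8 knockout mice were above the Tln2-null mean of both sexes together, although the ranges overlapped. In males the ratio ran from -0.44 to -0.23 (Tln2-null) and from -0.95 to -0.46 (knockout). In females it ran from -0.63 to -0.35 (Tln2-null) and from -0.84 to -0.45 (knockout), so the overlap within a sex was among the females. Pfkp/Pfkm differed by -0.23 (exact p = 0.0878, adjusted p = 0.307) and Pfkl/Pfkm by -0.14 (exact p = 0.21, adjusted p = 0.49). The remaining ratios differed by -0.11 (Slc2a1/Slc2a4), -0.10 (Pgam1/Pgam2), -0.07 (Ldha/Ldhb) and 0.05 (Pdk1/Pdk2), with exact adjusted p from 0.503 to 0.527. With the 4 females that carry Y-linked reads left out, the Hk1/Hk2 difference was -0.15 (exact p = 0.179, adjusted p = 0.982), a value in which knockout 2 is the only knockout female.

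**Figure D3:**
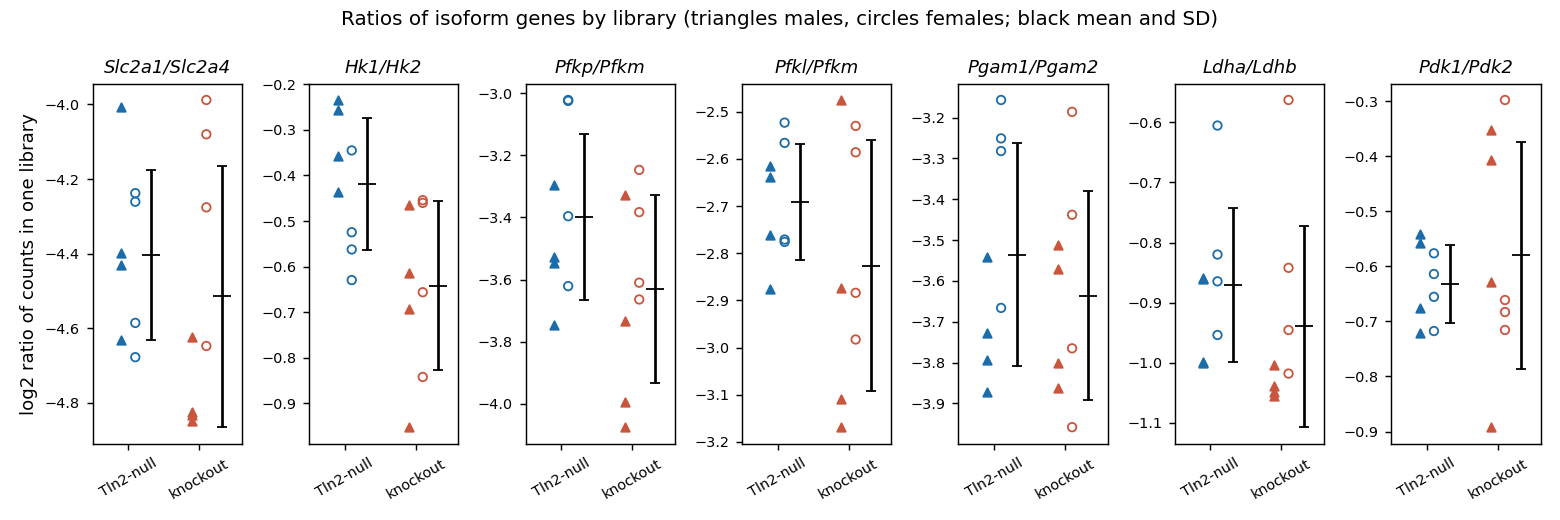
Log2 ratio of the counts of 2 isoform genes in each library, by genotype, with triangles for males, circles for females and the mean and SD in black. In the Hk1/Hk2 panel the knockout libraries lie between -0.95 and -0.45 and the Tln2-null libraries between -0.63 and -0.23.

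Between the sexes no member passed either (0 of 35, where 0.0871% of all genes did in edgeR's fit). Limma-voom and DESeq2 also called 0 members, and their shares of all genes are not given here. In edgeR's fit 1 member, Pfkp, had an unadjusted p under 0.05, against 3.69% of all genes. The ranges of the sexes overlapped for every member (0 of 35 apart, against 0.109% of all genes). Pfkp ran from 86.23 through 112.1 to 144.4 CPM in males and from 104.9 through 138.8 to 167.3 CPM in females, a log2 difference, male minus female, of -0.24 ± 0.11 (adjusted p = 1). Pfkfb2 was at -0.22 ± 0.13, Slc2a1 at -0.19 ± 0.13, Pgam1 at -0.18 ± 0.11 and Ldha at -0.09 ± 0.06, all lower in males by estimate. Ldhb (0.07 ± 0.05), Idh3b (0.06 ± 0.05) and Dlst (0.06 ± 0.04), the last encoding the E2 subunit of 2-oxoglutarate dehydrogenase, had estimates above 0 (adjusted p = 1 for these 7 also). All 6 pyruvate dehydrogenase and all 10 TCA cycle estimates were above 0, where 50.4% of all genes were, while 2 of 7 upper and 3 of 7 lower glycolysis estimates were. The cardiomyocyte markers were above 0 in 11 of 12 cases (median 0.02) and the fibroblast markers below 0 in 6 of 8 (median -0.23), and their part was not tested.

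The genotype difference was then taken within each sex. In males 22 of 35 estimates were above 0 (48.5% of all genes) and 0 of 35 passed (0% of all genes), while 4 had an unadjusted p under 0.05 (6.07% of all genes): Pdha1, Slc2a1, Hk2 and Dld. Pdha1 stood at 1603, 1612, 1683 and 1573 CPM in Tln2-null males and at 1740, 1809, 1916 and 1855 CPM in knockout males. It was the one member whose ranges did not overlap in males, as was the case for 3.21% of all genes. Its log2 fold change was 0.18 ± 0.07 (edgeR adjusted p = 0.775). The 12 cardiomyocyte markers all had estimates above 0 in males (median 0.175), 0 passed and 7 had an unadjusted p under 0.05, while in females 6 of 12 were above 0 (median -0.01), and their part in the Pdha1 value was not tested. In females Pdha1 stood at 1632, 1584, 1589 and 1718 CPM against 1513, 1686, 1707 and 1940 CPM, a spread that covered the Tln2-null values, with 0.07 ± 0.07. Hk2 stood at 342.6, 367.3, 379.6 and 429 CPM against 458.9, 529.7, 432.9 and 366.9 CPM in males, where 1 knockout male lay among the Tln2-null males. In females 27 of 35 estimates were above 0 (50% of all genes), 0 of 35 passed and 0 had an unadjusted p under 0.05 (0% and 3.31% of all genes), and no member's ranges were apart (2.06% of all genes).

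Among the members, Slc2a1 differed most between the sexes in its genotype difference. In Tln2-null males it stood at 30.32, 23.18, 28.03 and 36.88 CPM, and in knockout males at 25.02, 24.09, 21.93 and 18.75 CPM. In Tln2-null females it stood at 27.84, 30.37, 28.03 and 21.78 CPM, and in knockout females at 39.44, 36.41, 24.8 and 28.9 CPM. In males 2 of 4 knockout mice lay below every Tln2-null mouse, and in females 2 of 4 knockout mice lay above every Tln2-null mouse. The log2 fold change was -0.40 ± 0.16 in males (adjusted p = 0.775) and 0.26 ± 0.16 in females (adjusted p = 1). The difference between these, female minus male, was 0.66 ± 0.22 (adjusted p = 0.98 in edgeR). No member passed this test of the difference (0 of 35, where 0% of all genes did), and Slc2a1 alone, 1 of 35 against 4.27% of all genes, had an unadjusted p under 0.05. DESeq2 and limma-voom called 0 members here and within either sex, and their shares of all genes in these fits are not given here. With 1 surrogate variable the Slc2a1 difference was 0.29. Leaving out the 4 females that carry Y-linked reads leaves 1 knockout female, replicate 2, which has the highest Slc2a1 level of all libraries (39.44 CPM), so the value of 1 on the log2 scale (adjusted p = 0.59) rests on that mouse for the knockout females. Slc16a1 came next, with 0.31 ± 0.18 in males, -0.17 ± 0.18 in females and a difference of -0.47 ± 0.26 (adjusted p = 0.98). Of all members 15 of 35 differences were above 0 (51.1% of all genes). For the TCA cycle 0 of 10 were (median -0.07), and for the cardiomyocyte markers 0 of 12 (median -0.20), whose part was not tested.

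**Figure D4:**
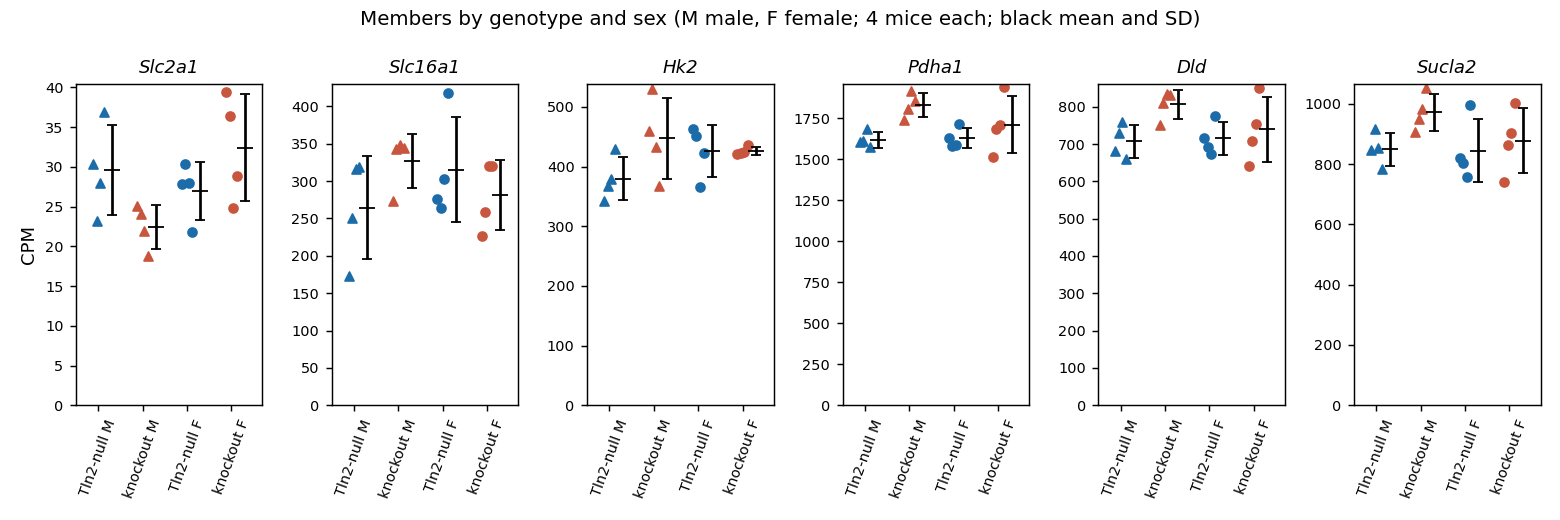
CPM of 6 members by genotype and sex (M male, F female), 1 point per mouse and 4 mice per group, with the mean and SD in black. For Slc2a1 the knockout males lie between 18.75 and 25.02 CPM and the knockout females between 24.8 and 39.44 CPM, and for Pdha1 the knockout males lie above all Tln2-null males.

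The number in the sample titles runs over a span of 17. The sources used here do not say what it stands for. Its mean was 7.5 in Tln2-null and 10.9 in knockout libraries, so it is partly tied to genotype. Depth differed along it too: titles 14, 15, 16 and 18 held 14159641, 15015243, 14848280 and 11161766 counts. Titles 3 and 6 held 14377696 and 15429511, and every other library held at least 17118291. The part of depth in the slopes was not tested. In a fit with genotype, sex and a linear term for the title number, 2 of 35 members passed, a share like the 6.34% of all genes that did. Of the 35 slopes 14 were positive (49.2% of all genes). Pfkl stood at 225 and 247.7 CPM in Tln2-null 1 and 2, whose titles carry the lowest numbers, and at 176 and 153.8 CPM in knockout 7 and 8, whose titles carry the highest. Its slope was -0.0395 ± 0.0064 on the log2 scale per step, or -0.67 over the whole span (adjusted p = 0.00647). The slope was -0.03 within Tln2-null and -0.05 within knockout libraries, and -0.04 within males and within females. Slc16a1 stood at 172.5 and 275.5 CPM in Tln2-null 1 and 2 and at 320.7 and 344.8 CPM in knockout 7 and 8. Its slope was 0.0472 ± 0.0089 per step, or 0.80 over the span (adjusted p = 0.00946). Within Tln2-null libraries it was 0.07, within knockout libraries 0.03, within males 0.05 and within females 0.04. All 7 upper glycolysis slopes were below 0, of which Pfkl alone passed. Without Tln2-null 7 the count of members that passed was 5, Slc2a1, Dld and Sucla2 being added. The count over all genes moved as well: with 1 library left out at a time it ran from 229 to 1162, against 874 with all libraries. Its value without Tln2-null 7 alone is not given here, so the 5 is not read as a result about the members.

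**Figure D5:**
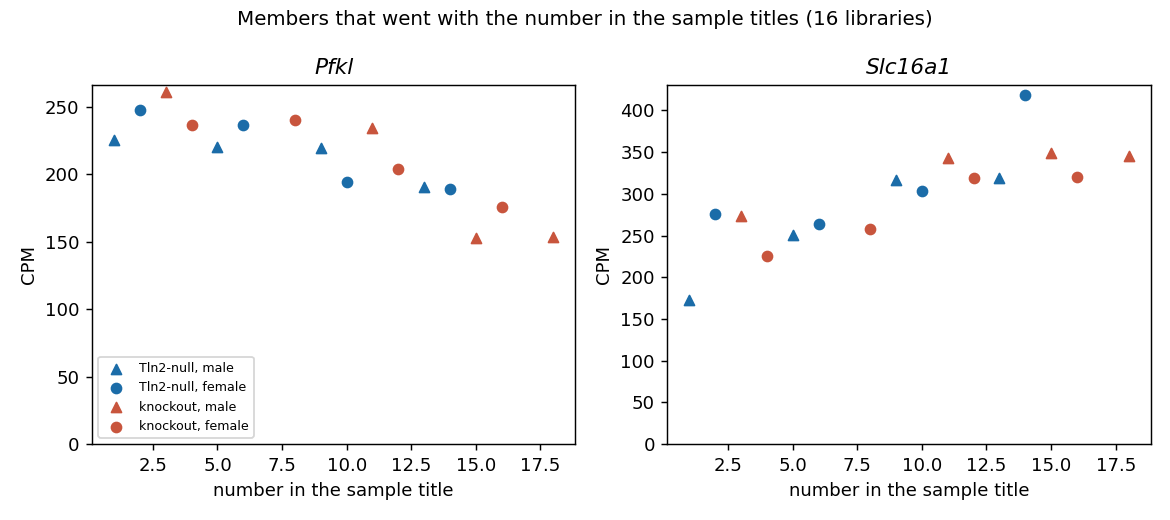
CPM of Pfkl and Slc16a1 against the number in the sample title, 1 point per library, with genotype by colour and sex by symbol. Over all libraries the highest Pfkl value is 260.7 CPM (title number 3) and the lowest 152.9 CPM (15). The lowest Slc16a1 value is 172.5 CPM (1) and the highest 418.1 CPM (14). For each gene both genotypes slope the same way.

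Neighbouring genes of the pathway were read from lists of 91 genes, of which 86 passed the filter on low counts. Between genotypes 0 of 86 passed (0% of all genes), 59 had estimates above 0 (48.8% of all genes) and 8 had an unadjusted p under 0.05 (5.08% of all genes). The gene of lowest p in each of 6 lists was as follows. Among other transporters of lactate and pyruvate it was Slc16a7, which encodes MCT2. Its level was 7.76 ± 1.96 CPM (Tln2-null) against 11.3 ± 2.71 CPM (knockout), with a log2 fold change of 0.53 ± 0.17 (adjusted p = 0.755). Among other glycolysis genes it was Eno2, the neuronal enolase, at 2.12 ± 0.514 and 1.44 ± 0.42 CPM (-0.55 ± 0.19, adjusted p = 0.804). Pdpr, the regulatory subunit of pyruvate dehydrogenase phosphatase, stood at 0.19 ± 0.08 (adjusted p = 0.935). Suclg2, the GDP-forming succinyl-CoA ligase subunit, stood at 0.15 ± 0.07 (adjusted p = 0.935). Esrrg, an oestrogen-related receptor that acts on mitochondrial genes, led the regulators at 0.16 ± 0.06 (adjusted p = 0.799). In the pentose phosphate pathway Tkt (transketolase) stood at -0.15 ± 0.07 (adjusted p = 0.935). The pentose phosphate list was the one with most estimates below 0, at 7 of 8.

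Between the sexes 0 of these 86 genes passed and 61 had estimates above 0 (50.4% of all genes). With the title number 6 of 86 passed, a share like the 6.34% of all genes, 3 with a positive and 3 with a negative slope. Over the span the log2 change was 0.63 for Hif1a, the hypoxia-inducible factor subunit that acts on many glycolytic genes (adjusted p = 0.00848), and 0.61 for Pdp1, a pyruvate dehydrogenase phosphatase (adjusted p = 0.0139). It was 0.38 for Mef2a, a muscle transcription factor (adjusted p = 0.0319). It was -0.62 for Gys1, the muscle glycogen synthase (adjusted p = 0.00349), -0.37 for Got1, the cytosolic aspartate aminotransferase (adjusted p = 0.04), and -0.35 for Pgd, 6-phosphogluconate dehydrogenase (adjusted p = 0.0343). Pdk4, the pyruvate dehydrogenase kinase known to rise with fasting, was named after its values were seen: it ran from 238.3 to 2960 CPM over the libraries, a wider range than that of any member, and its genotype difference was -0.26 ± 0.41 (adjusted p = 0.967).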

How the data were processed

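Left ventricles of 16 mice were sequenced, and the labels give each mouse's genotype and sex. Per the labels' protocols, TRIzol and a column served for RNA extraction and the library kit was strand-specific. DRAGEN, DESeq2 and the mm10 build appear in the submitters' processing notes, without their roles. The authors deposited whole counts per gene symbol. They also deposited a normalized signal for 16405 genes, in which each library's counts are divided by a constant of its own (100 percent of values whole within 0.001). In 26 entries the symbol had become a date, none of them a member.

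Here counts were fitted with edgeR 4.0.16 in R 4.3.3: filterByExpr by genotype and sex, TMM scaling, and the quasi-likelihood test with genotype and sex as terms. A fit of 4 means, one for each genotype in each sex, gave the differences within each sex and the difference between these. Another fit added a linear term for the title number. Benjamini-Hochberg adjustment of p-values ran over all 13775 genes tested, with calls under 0.05. SE were worked back from the F statistic and are approximate. For the ratios 0.5 was added to each count. Exon lengths are the union over basic protein-coding transcripts of GENCODE M21, and 3 counts is taken as the floor of detection, which no member neared. No 2 of the 120 library pairs held identical counts. Replicates were separate mice, numbered here in accession order.

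The members and all gene lists were chosen with earlier results of these data known. All members are named. Full statistics were given for members that passed and for the 8 of lowest p by genotype and by sex, and 1 gene of lowest p, or up to 4 that passed, for each other pathway list. One such gene is not reported here. Alternatives were other size factors, no and a stricter filter (1 CPM in 8 libraries), a left-out term, the title number or 1 surrogate variable (sva 3.50.0) as a covariate, limma-voom (limma 3.58.1), DESeq2 1.42.0, limma on the deposited signal, and left-out libraries.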

Additional observations from a re-analysis of the deposited data

Results flagged for a closer look

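Each member was examined in each genotype for a library far from the other 7, in 70 groups in all, of which chance alone flags about 1 in 20. There were 2 such values. Pfkm, the muscle phosphofructokinase, stood at 1715 CPM in knockout replicate 4, while the other knockout libraries ran from 1328 to 1502 CPM. That library was also the highest of all 16 for 16 of the 35 members. Pgam2, the muscle phosphoglycerate mutase, stood at 668.2 CPM in Tln2-null replicate 3, while the other Tln2-null libraries ran from 519 to 586.7 CPM.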

How the results depend on the processing

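Over 28 alternatives for the genotype comparison, the number of members that passed was 0 under each, while over all genes edgeR called 0, DESeq2 called 17, limma-voom called 11, and edgeR without knockout replicate 8 called 7. The members' median log2 fold change by genotype lay between 0.02 and 0.07. By sex it lay between -0.001 and 0.06, the lowest value without knockout 2 and 4 together, a setting chosen after the data were seen. Pfkl and Slc16a1 passed for the title number under every setting run, with adjusted p from 4.56e-06 to 0.0386 and from 6.07e-05 to 0.0469. With 1 library left out at a time, the count of members that passed for the title number ran from 2 to 5, the value of 5 coming without Tln2-null replicate 7. Over all genes the count in these settings ran from 229 to 1162. The all-gene count without Tln2-null replicate 7 alone is not given here, so the value of 5 is not read as a result about the members. With the 4 females that carry Y-linked reads left out, 3 isoform ratios changed sign, to 0.053 for Slc2a1/Slc2a4, 0.11 for Pgam1/Pgam2 and 0.105 for Ldha/Ldhb (exact permutation, adjusted p = 0.982 for each). This setting leaves knockout 2 as the only knockout female, so these values rest on that library for the knockout females. Without knockout replicate 2 the Ldha/Ldhb difference was -0.12 (exact p = 0.0286 before adjustment). It did not pass, as the lowest adjusted p of this ratio over all settings was 0.1 (exact permutation). No paired analysis was possible because the replicate numbers were given in accession order and the titles number the mice consecutively over both genotypes. Depth limits Slc2a1 most, the member with the lowest counts.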
